A study of Homo sapiens with 192 samples.

Results

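The 8 genes described here, glucose sensors and arrestin-domain genes, were followed by RNA sequencing in 4 human colorectal cancer (CRC) cell lines grown in 2D or in 3D. They are TXNIP, the arrestin domain-containing genes ARRDC1, ARRDC2, ARRDC3 and ARRDC4, and the glucose-responsive transcription factors MLXIP (MondoA), MLXIPL (ChREBP) and KLF10. They were chosen by name and found by Ensembl identifier, 8 of the 58243 genes listed, and all 8 were among the 19387 genes that passed the filter on low counts. TXNIP passed it through 3 lines, since it was close to 0 in the fourth. The lines HT29, LS513, HCT116 and LS174T are established, untreated tumor epithelial lines, and each gave 3 libraries from 2D growth and 3 from 3D growth, 24 libraries in all. The labels give no treatment or engineered allele for any line. HCT116 was kept in McCoy medium and the other lines in DMEM, so line and medium cannot be told apart. Each line stands for 1 tumor. How the 3D cultures for RNA were made is not given in the sources used here, beyond the low attachment plates of the study's spheroid assay. The sources do not say whether the 3 libraries of a group came from separate cultures, so p-values measure the spread between these libraries, which may be technical.

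Alpha-arrestins are adaptor proteins that bring NEDD4 family ubiquitin ligases to membrane proteins and so steer their endocytosis. TXNIP, the best known of them, also binds thioredoxin and restrains glucose uptake by removing the transporter GLUT1 from the cell surface. When glucose 6-phosphate accumulates, MondoA or ChREBP pairs with MLX and binds carbohydrate response elements, which carry a pair of E box-like half-sites, in genes such as TXNIP and ARRDC4. KLF10 is a repressor induced by TGF-beta and, in liver, by glucose through ChREBP.

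Library totals were between 18723942 and 34277421 counts with a median of 30777613, so that 3 counts, the floor used here, were worth between 0.0875 and 0.16 CPM, that is, counts scaled to a library of 1000000. Levels are CPM after TMM scaling, with mean ± SD over 3 libraries (n = 3). The epithelial marker EPCAM was counted in every library at 257 to 1816 CPM, whereas KRT20 and LGALS4 were at most 2.5 and 0.363 CPM on average in HCT116. Of the 8 markers of other cell types, PTPRC had at most 2 counts in a library, and CD3E and COL1A2 had 0 counts in each of the 24. COL1A1 reached 21.8 CPM (14.1 ± 0.95 in HCT116 2D) and CD14 reached 15.1 CPM (in HT29, 6.11 ± 1.13 in 2D and 12.6 ± 2.53 in 3D, called higher, edgeR adjusted p = 0.0072). VWF, at most 0.719 CPM, was called higher in 3D in LS513 and HCT116 (edgeR adjusted p = 0.00046, with 1 to 2 counts per library in 2D, and 0.03), and PDGFRB (at most 0.74 CPM) and PECAM1 (at most 2.29 CPM) were not called. LS174T 3D replicate 2 stood furthest from the other libraries of its group, at a root mean square log2 distance of 0.395 against 0.122 to 0.294 for the others. Its deviations correlated with transcript length across genes (r = -0.30). This was not particular to it, since HCT116 2D replicate 3, in another group, had r = -0.29. LS174T 3D replicate 3, at 0.294, had r = 0.32. Each library was compared with the others of its group, so the values of these LS174T libraries are not independent. Called values of the named genes that changed their call without LS174T 3D replicate 2 are given both ways. Marker genes and genes named after their values were seen, such as MGA, were not followed in fits without 1 library.

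**Figure D1:**
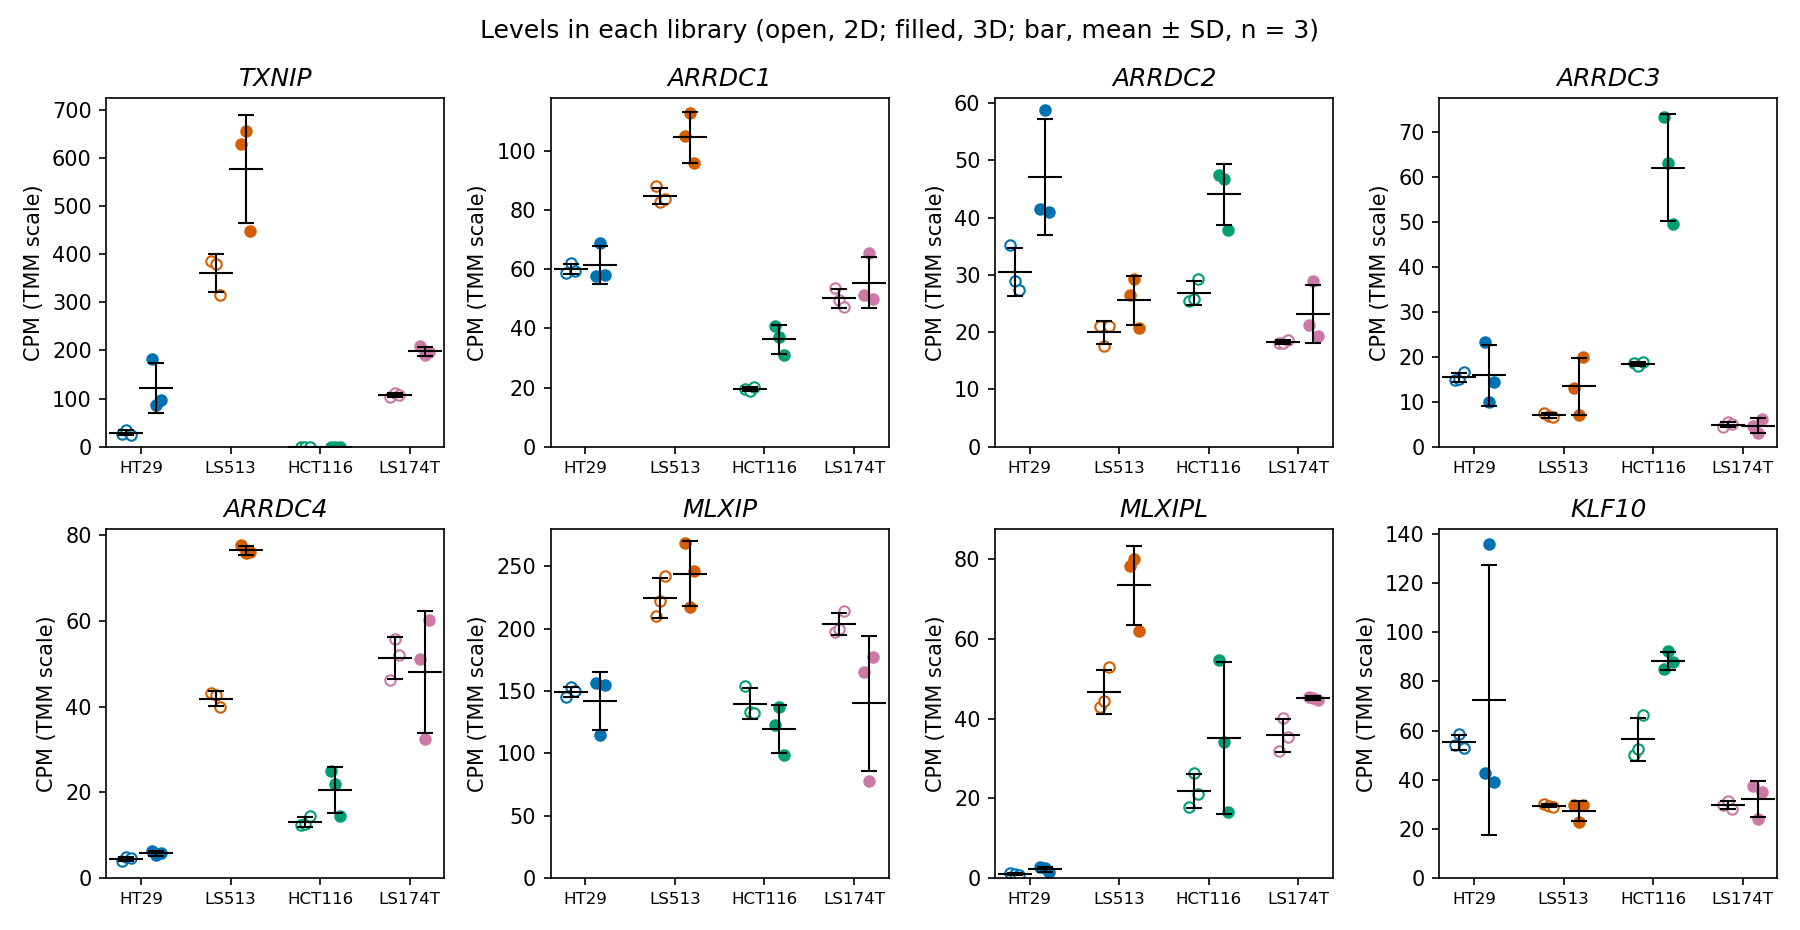
CPM on the TMM scale (y axis, from 0) of the 8 genes in each of the 24 libraries, by line (x axis). Open points are 2D and filled points 3D libraries, and bars give mean ± SD (n = 3). TXNIP is near 0 in all HCT116 libraries and at 315 to 655 CPM in LS513. One HT29 3D library holds KLF10 at 136 CPM.

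TXNIP was higher in 3D than in 2D in the 3 lines that held its RNA, and HCT116 held almost none. TXNIP (ENSG00000265972) lies on the minus strand at chr1:145992435-145996600 (GRCh38), with 3625 exonic bases that no other annotated gene shares. In HT29, the 2D libraries held 27.2, 34.4 and 24.5 CPM and the 3D libraries 182, 87.3 and 97.6 CPM. The groups did not overlap, and the log2 fold change of 3D over 2D was 2.09 ± 0.21 (SE), a 4.26-fold higher level (edgeR adjusted p = 2.6e-07). In LS174T, the 2D libraries were at 103, 112 and 107 CPM and the 3D libraries at 209, 190 and 196 CPM. This is a log2 fold change of 0.88 ± 0.20 (edgeR adjusted p = 0.0042), and it was called in 6 of 6 fits that left out 1 library of the line. LS513, the line with the highest TXNIP level, had 386, 380 and 315 CPM in 2D and 629, 655 and 449 CPM in 3D. Its groups did not overlap either, with a log2 fold change of 0.68 ± 0.20 (edgeR adjusted p = 0.017), but 3 of 6 fits without 1 of its libraries lost the call, with an adjusted p of up to 0.11 without LS513 3D replicate 2. Since these are bulk samples, more cells with the transcript and more transcript per cell cannot be told apart.

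In HCT116, 5 of 6 libraries had 0 counts of TXNIP and the remaining one, 3D replicate 2, had 2 counts, so no fold change is given. In 2D, with HCT116 taken at 3 counts per library, TXNIP was at least 3745-fold lower in HCT116 than in LS513, at least 1116-fold lower than in LS174T and at least 298-fold lower than in HT29. The order of the means was LS513 3D (578 ± 113), LS513 2D (361 ± 39.5), LS174T 3D (198 ± 9.74), HT29 3D (122 ± 52), LS174T 2D (107 ± 4.66), HT29 2D (28.7 ± 5.11) and then HCT116. HT29 3D and LS174T 2D differed by less than the sum of their SDs, and every other pair of neighbours above HCT116 differed by more. The growth effect of TXNIP differed among the 3 lines other than HCT116 (edgeR interaction test, adjusted p = 0.0032), HT29 having the largest log2 fold change. HCT116 had no growth effect of TXNIP to compare.

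Genes on both sides of TXNIP were counted in HCT116. They were looked at after the TXNIP values were seen, within 100 kb on either side. RBM8A, a core part of the exon junction complex that lies 64757 bases away, was at 141 to 164 CPM in the 6 HCT116 libraries, within the 76.9 to 171 CPM spanned by the other lines. POLR3GL, an RNA polymerase III subunit gene 13587 bases away, was at 11.2 to 25.6 CPM in HCT116, and LIX1L, 34434 bases away, was at 14.6 to 24.7 CPM, above every library of the other lines, which reached at most 8.71 CPM. NBPF10 on the other side was at 0.869 to 1.6 CPM in HCT116, against 0.834 to 1.48 CPM in HT29. HJV had 0 counts in all 24 libraries. The other 8 neighbours each had at least 7 counts in every HCT116 library.

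**Figure D2:**
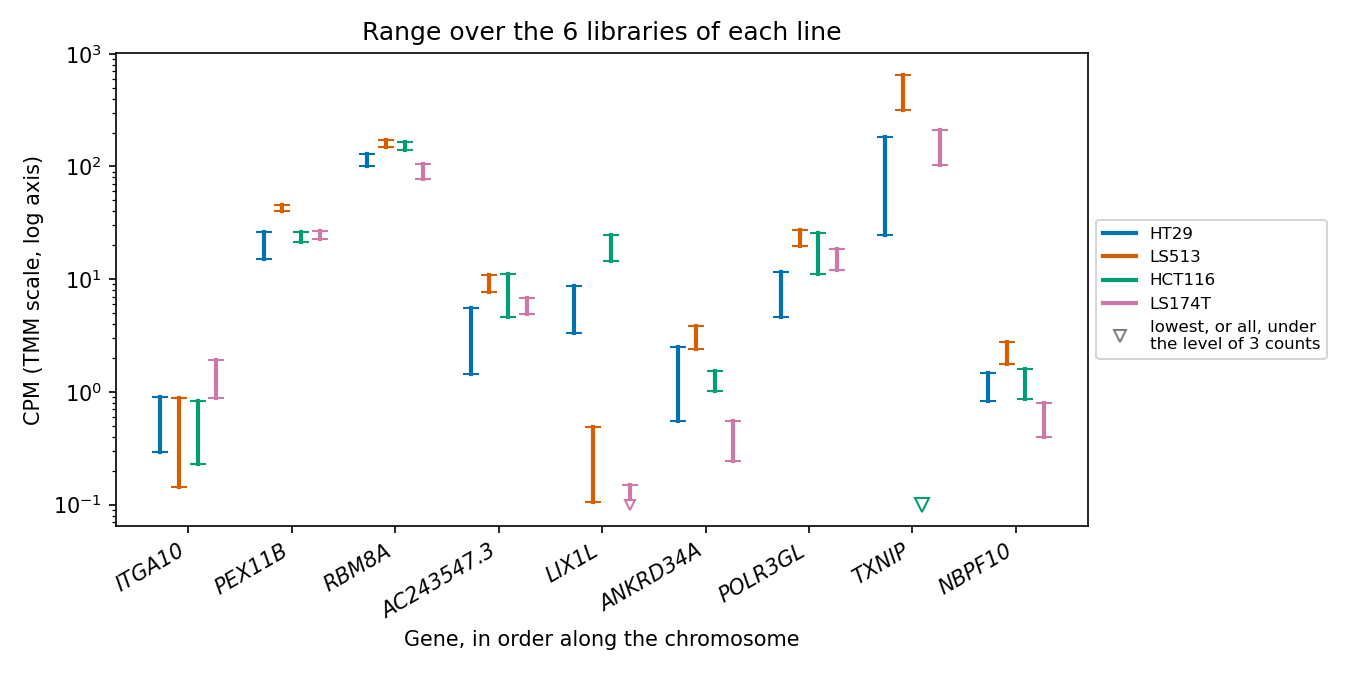
CPM on the TMM scale (y axis, logarithmic) of TXNIP and the other genes within 100 kb, in chromosome order (x axis). Each bar spans the lowest to the highest of the 6 libraries of a line, and open triangles mark levels under that of 3 counts. TXNIP in HCT116 lies under 3 counts, while RBM8A is at 141 to 164 CPM there. HJV, with 0 counts, is not drawn.

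The promoter of TXNIP is shown because it held the paired half-sites and, of the members' promoters searched, was alone in doing so. The RefSeq table of GRCh38.p14 had promoters for 7 of the 8 genes, and each start site was searched over the 250 bases before it on both strands. Capitals in the stretch mark the paired half-sites and the CCAAT boxes, which read ATTGG on the opposite strand. The stretch is chr1:145996610-145996729 on the minus strand, from -150 to -31.
TXNIP: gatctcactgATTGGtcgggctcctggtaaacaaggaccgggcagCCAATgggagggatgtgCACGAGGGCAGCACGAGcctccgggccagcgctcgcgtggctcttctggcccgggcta
The pair, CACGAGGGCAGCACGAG, runs from -88 to -72 (chr1:145996651-145996667) and consists of 2 matches to CACGNG with 5 bases between them. Such a pair on either strand was found in 23 of 35116 promoters, or 0.0655%, while a single CACGNG was found in 26.7% and CCAAT in 32%. A match describes these letters, and binding was not measured.

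ARRDC4 was the member whose growth effect was clearest in LS513, and its level differed widely between lines. ARRDC4 (ENSG00000140450, chr15:97960698-97973838, plus strand), the closest relative of TXNIP among the arrestin domain genes, likewise lowers glucose uptake and is a known MondoA target. In LS513 it was at 43.1, 42.6 and 39.9 CPM in 2D and at 77.7, 75.8 and 76 CPM in 3D. These tight, separate groups gave a log2 fold change of 0.87 ± 0.17 (edgeR adjusted p = 0.00066), which was called in all 6 fits without 1 library of the line. In HCT116, the line without TXNIP, ARRDC4 was at 12.3, 12.5 and 14.5 CPM in 2D and at 25, 22 and 14.5 CPM in 3D. The log2 fold change there was 0.65 ± 0.18 (edgeR adjusted p = 0.0083), and 0.46 without HCT116 3D replicate 1 (adjusted p = 0.08). In HT29 the level was low, at 3.91, 4.82 and 4.66 CPM in 2D and 6.36, 5.26 and 5.73 CPM in 3D, and although the groups did not overlap the change was not called (log2 fold change 0.38 ± 0.20, edgeR adjusted p = 0.14). LS174T had 46.2, 55.7 and 52.1 CPM in 2D and 51.2, 32.4 and 60.3 CPM in 3D, which overlapped. The log2 fold change of -0.10 in LS174T (edgeR adjusted p = 0.73) became 0.13 without LS174T 3D replicate 2, the library at 32.4 CPM. The growth effect of ARRDC4 differed among the 4 lines (edgeR adjusted p = 0.028) and among the 3 lines other than HCT116 (adjusted p = 0.023), but with the replicate number as a block the former was 0.13. In 2D, its mean was 11.5-fold higher in LS174T (51.4 ± 4.80 CPM) than in HT29 (4.46 ± 0.484 CPM).

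The ARRDC4 promoter is shown for comparison with TXNIP, over chr15:97960473-97960672 on the plus strand, from -230 to -31. Capitals mark the E box CACGTG and the CCAAT boxes.
ARRDC4: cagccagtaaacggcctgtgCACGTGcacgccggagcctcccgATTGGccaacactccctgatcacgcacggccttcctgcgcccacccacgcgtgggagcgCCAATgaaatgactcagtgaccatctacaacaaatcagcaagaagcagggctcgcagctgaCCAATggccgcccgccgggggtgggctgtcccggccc
The E box begins at -210 and was found in 6.34% of all promoters. It is also 1 of 3 matches to CACGNG in the ARRDC4 promoter, none of them paired. The remaining matches lie within the stretch and are not in capitals. Of the other members, unpaired CACGNG matches were found in promoters of ARRDC2 (3 at 1 start site) and ARRDC3 (1) and none in those of ARRDC1, MLXIP and MLXIPL. The TATAAA box, held by 10.7% of promoters, was found at 1 of the start sites of ARRDC2 and at no other member start site.

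ARRDC3 had the largest growth effect of any member in HCT116 and none that was called in HT29 or LS174T. ARRDC3 (ENSG00000113369, chr5:91368724-91383359, minus strand) is an adaptor for the ubiquitination of integrin beta 4 and beta-adrenergic receptors. In HCT116 it was at 18.5, 17.9 and 18.7 CPM in 2D and 73.3, 63.1 and 49.5 CPM in 3D. Every 3D library was far above the 2D libraries, for a log2 fold change of 1.75 ± 0.28, or 3.37-fold (edgeR adjusted p = 6.7e-05). In LS513 the values were 7.47, 6.83 and 6.53 CPM in 2D and 13.1, 7.1 and 19.9 CPM in 3D. One 3D library lay within the 2D range, and the log2 fold change of 0.94 ± 0.29 (edgeR adjusted p = 0.02) was called in 2 of 6 fits without 1 library of the line and fell to 0.54 without LS513 3D replicate 3 (adjusted p = 0.18). In HT29, ARRDC3 was at 14.7, 15 and 16.5 CPM in 2D and spread over 23.3, 9.96 and 14.3 CPM in 3D, and in LS174T it was at 4.31, 5.37 and 5.01 CPM against 4.69, 2.99 and 6.23 CPM. The log2 fold changes were 0.05 ± 0.28 and -0.07 ± 0.31 (edgeR adjusted p = 0.95 and 0.92). The growth effect differed among the 4 lines (edgeR adjusted p = 0.0052) but the difference was not called without HCT116 (adjusted p = 0.17). The antisense gene ARRDC3-AS1 overlaps 2.94% of its exonic bases. The libraries were strand specific, but the strand setting of the counting is not given in the sources used here.

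ARRDC1 also had its largest growth effect in HCT116, the line with its lowest 2D level. ARRDC1 (ENSG00000197070, chr9:137605654-137615360, plus strand) drives the budding of small vesicles from the plasma membrane. In HCT116 its libraries were at 19.5, 18.9 and 20.2 CPM in 2D and 40.7, 37 and 31.1 CPM in 3D, without overlap, for a log2 fold change of 0.89 ± 0.11 (edgeR adjusted p = 3.3e-06). LS513, with the highest level, had 88, 82.9 and 83.6 CPM in 2D and 105, 113 and 95.9 CPM in 3D. The LS513 groups did not overlap, but the log2 fold change of 0.30 ± 0.11 (edgeR adjusted p = 0.043) was called in only 1 of 6 fits without 1 library of the line. HT29 held 58.7, 62.1 and 59.5 CPM in 2D and 57.8, 68.9 and 57.9 CPM in 3D, and LS174T held 53.6, 49.7 and 47.1 CPM against 51.3, 65.4 and 49.8 CPM. Both pairs of groups overlapped, and the log2 fold changes were 0.03 ± 0.11 and 0.15 ± 0.11 (edgeR adjusted p = 0.86 and 0.35). Here too the growth effect differed among the 4 lines (edgeR adjusted p = 0.0012) and no difference was called among the other 3 (adjusted p = 0.46). Of its exonic bases, 4.79% are shared with AL590627.2 on the same strand.

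ARRDC2 rose in HT29 and HCT116, the lines where it was highest. ARRDC2 (ENSG00000105643, chr19:18001132-18014102, plus strand) encodes another adaptor of the family. HT29 had 35.2, 29 and 27.3 CPM in 2D and 41.4, 58.8 and 41 CPM in 3D, and HCT116 had 25.5, 25.8 and 29.3 CPM against 47.5, 46.7 and 37.9 CPM. The groups of both lines were apart, with log2 fold changes of 0.62 ± 0.16 and 0.71 ± 0.16 (edgeR adjusted p = 0.0033 and 0.0017), each called in 6 of 6 fits without 1 library of its line. LS513 was at 21.1, 17.6 and 21.1 CPM in 2D and 26.5, 29.3 and 20.8 CPM in 3D. LS174T was at 18.1, 18.1 and 18.6 CPM in 2D and 21.2, 28.9 and 19.3 CPM in 3D. These changes were not called (log2 fold change 0.36 in LS513 and 0.34 in LS174T, edgeR adjusted p = 0.11 and 0.13), and no difference among the lines was called (adjusted p = 0.48). AC020904.3 on the opposite strand overlaps 9.53% of its exonic bases. The remaining alpha-arrestin gene, ARRDC5, had at most 2 counts in a library and was not tested.

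Of the sensors, MLXIPL (ChREBP) was the one whose level differed most between lines and the one called higher in 3D, in HT29 and HCT116. MLXIPL (ENSG00000009950, chr7:73593194-73624543, minus strand) is the carbohydrate response factor best known from liver and fat. In HT29 it was low, with 34, 26 and 14 counts in 2D (1.17, 0.895 and 0.767 CPM) and 89, 72 and 42 counts in 3D (2.68, 2.49 and 1.52 CPM). The groups did not overlap, and the log2 fold change was 1.22 ± 0.40 (edgeR adjusted p = 0.018). It was called in 4 of 6 fits without 1 library of the line, with an adjusted p of 0.068 without HT29 3D replicate 1. In HCT116, MLXIPL was at 17.9, 26.3 and 21 CPM in 2D and spread over 54.6, 34.2 and 16.5 CPM in 3D. The 3D libraries enclosed the 2D range. The call (log2 fold change 0.69 ± 0.25, edgeR adjusted p = 0.042) held in 2 of 6 fits without 1 library of the line. Without HCT116 3D replicate 1 the log2 fold change was 0.21 (adjusted p = 0.55). With the replicate number as a block the call was also lost (adjusted p = 0.14). LS513 held 42.8, 44.4 and 53 CPM in 2D and 78.2, 80.1 and 62 CPM in 3D, apart but with an adjusted p of 0.06 (edgeR, log2 fold change 0.65 ± 0.25). LS174T held 31.9, 40.2 and 35.4 CPM in 2D and 45.5, 45.2 and 44.6 CPM in 3D, also apart, with a log2 fold change of 0.33 ± 0.25 (edgeR adjusted p = 0.36). No difference in growth effect among the lines was called (adjusted p = 0.54). The 2D mean in LS513 (46.8 ± 5.49 CPM) was 49.6-fold that in HT29 (0.943 ± 0.204 CPM), the widest range of any member counted in all lines.

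MLXIP (MondoA), the sensor best known from muscle, was counted at high levels in every line and was called higher in 3D in none. MLXIP (ENSG00000175727, chr12:122078722-122147347, plus strand) ranged from 77.8 to 269 CPM, and its 2D means differed by 1.61-fold between LS513 (224 ± 16 CPM) and HCT116 (140 ± 12.7 CPM). Its log2 fold changes were -0.07 in HT29, 0.12 in LS513 and -0.23 in HCT116 (edgeR adjusted p = 0.82, 0.72 and 0.4). In LS174T, the 2D libraries were at 197, 200 and 214 CPM and the 3D libraries at 165, 77.8 and 177 CPM. The log2 fold change of -0.54 ± 0.19 was called lower (edgeR adjusted p = 0.043), but the call held in only 2 of 6 fits without 1 library of the line. The lowest value belongs to LS174T 3D replicate 2, and without that library the log2 fold change was -0.25 (adjusted p = 0.25). MLX, the partner of both sensors, was at 83.7 to 158 CPM and was not called in any line, with log2 fold changes of 0.07 to 0.22.

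KLF10 (ENSG00000155090) was not called in any line, and 1 library decided its value in HT29. The HT29 2D libraries were at 54.1, 58.6 and 52.9 CPM, and the 3D libraries at 42.6, 136 and 38.9 CPM. The other two 3D libraries lay below the 2D range, and without HT29 3D replicate 3 the log2 fold change of 0.39 ± 0.29 (edgeR adjusted p = 0.31) became -0.39 (adjusted p = 0.051). Without HT29 3D replicate 4 it became 0.72. Of the 6 fits without 1 HT29 library, 1 called KLF10 (edgeR adjusted p = 0.038). In HCT116, KLF10 was at 50.2, 52.6 and 66.5 CPM in 2D and 84.9, 92.2 and 87.8 CPM in 3D, apart, with a log2 fold change of 0.65 ± 0.29 (edgeR adjusted p = 0.11). LS513 (22.7 to 30 CPM) and LS174T (23.8 to 37.5 CPM) had lower levels, with log2 fold changes of -0.11 and 0.11.

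**Figure D3:**
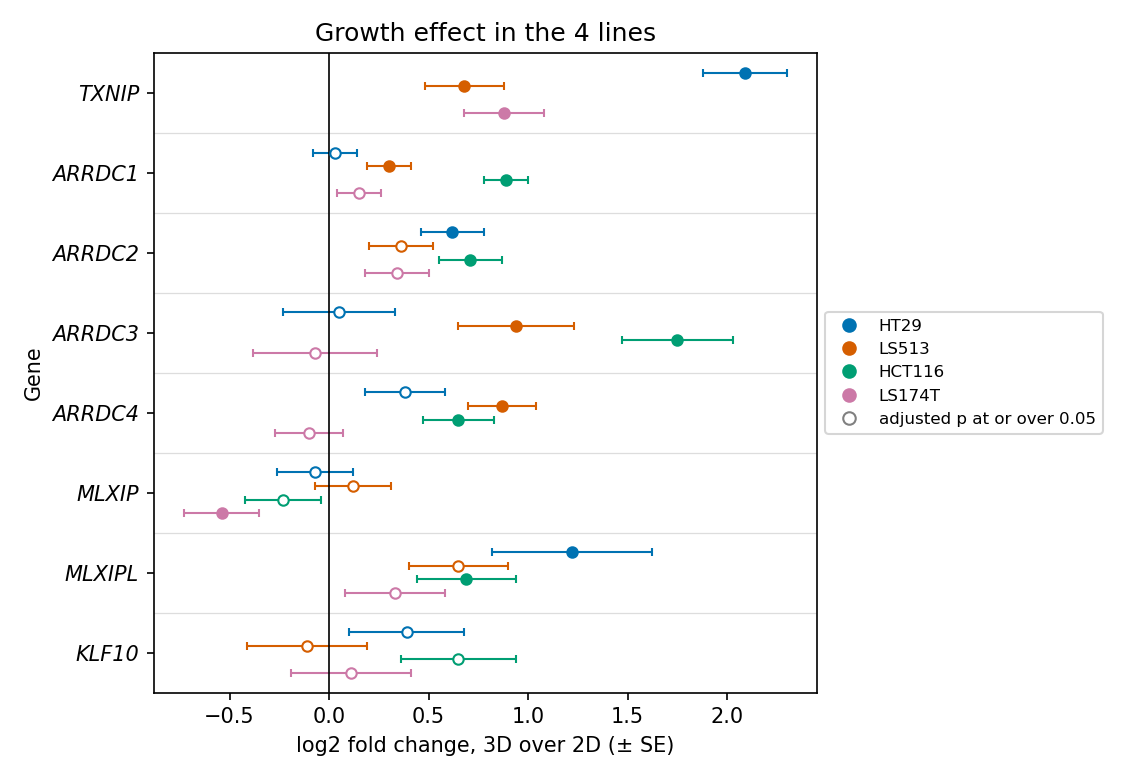
Log2 fold change of 3D over 2D (x axis, ± SE) of the 8 genes (y axis) in each line. Filled points have an edgeR adjusted p under 0.05. TXNIP is to the right of 0 in the 3 lines drawn, and the points for HCT116 are the rightmost for ARRDC1, ARRDC2, ARRDC3 and KLF10. TXNIP has no point in HCT116.

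Over the 8 genes, calls were mostly toward higher levels in 3D. Of 31 gene and line pairs with a fold change, 14 were called and 13 of these were higher in 3D. In HT29, 3 members were higher and 0 lower, while 21.1% of all tested genes were called higher and 19.6% lower. In LS513, 4 were higher and 0 lower, beside 13.7% and 9.9% of all genes. In HCT116, 5 of the 7 with a fold change were higher and 0 lower, beside 16.8% and 12.3%, and in LS174T 1 was higher and 1 lower, beside 13.1% and 9.15%. The median log2 fold change of the members was 0.39 in HT29, 0.51 in LS513, 0.13 in LS174T and 0.69 in HCT116 (7 genes), and the median over all tested genes was between 0.00 and 0.02. With 8 members these counts were read as a description.

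Counted by libraries alone, every 3D library was above every 2D library for 4 members in HT29, 4 in LS513, 3 in LS174T and 5 in HCT116. The share of all tested genes for which this held was 27.3%, 23%, 20.9% and 22.8% in those lines. The HCT116 count includes ARRDC4, whose lowest 3D and highest 2D libraries were both at 14.5 CPM after rounding. Of the 7 members with a fold change in all 4 lines, the growth effect differed among the lines for 3 (ARRDC1, ARRDC3 and ARRDC4), beside 17.1% of all genes. The 2D level differed among the lines for 8 of 8, and since 91.7% of all genes did so this does not set the members apart. The edgeR adjusted p for the 2D level ranged from 6.5e-17 for TXNIP to 0.0038 for KLF10.

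Per length, the members differed among themselves. On the scale of CPM per kilobase of exon, the median level over the 24 libraries was 28.9 for TXNIP, 15.1 for ARRDC1, 11.2 for MLXIP, 9.54 for KLF10, 7.23 for MLXIPL, 7.04 for ARRDC4, 5.81 for ARRDC2 and 2.78 for ARRDC3. MLX was at 25.2 on the same scale, and TXN, the thioredoxin that TXNIP binds, at 493. TXNIP and ARRDC4 thus differed in which line was lowest, TXNIP being at or under the floor in HCT116 and ARRDC4 lowest in HT29, whereas LS513 3D had the highest mean of both.

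The genes whose levels moved most like TXNIP were found by Pearson's r of log2(CPM + 1), after subtraction of each line's mean, among 14615 genes with at least 1 CPM on average. Over 24 libraries they were RCOR2 (r = 0.95), TMPRSS2 (0.95) and ARSL (0.94), and over the 18 libraries other than HCT116 they were PIK3IP1 (0.97), RALGDS (0.97) and RCOR2 (0.96). For ARRDC4 they were LMO7, CDH1 and RAB5B, each at 0.89. Among the members, r with TXNIP over the 18 libraries was 0.84 for MLXIPL, 0.69 for ARRDC2, 0.46 for ARRDC4, 0.30 for ARRDC1, 0.16 for ARRDC3, -0.04 for KLF10 and -0.20 for MLXIP. By this measure MLXIPL ranked 668 and ARRDC4 4435 among 14607 genes, so that many genes were closer to TXNIP than any member was. The points share the growth conditions and the sequencing, so that any gene with a growth effect in the same lines scores high.

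Among the partners of MLX and MAX, the repressors MXD4 and MXI1 were higher in 3D in all 4 lines. MXD4 had log2 fold changes of 1.73 in HT29, 0.84 in LS513, 0.81 in LS174T and 1.63 in HCT116 (edgeR adjusted p = 1.1e-08, 0.00028, 0.00032 and 3.7e-08). For MXI1 they were 0.74, 1.26, 0.66 and 1.15 (edgeR adjusted p = 4.7e-05, 1.4e-07, 0.00041 and 2.3e-07). MGA, a MAX partner of the same network, was lower in all 4 lines, with log2 fold changes of -0.77, -0.65, -0.75 and -0.52 in that order (edgeR adjusted p = 0.0023, 0.013, 0.0058 and 0.036). Its HCT116 groups overlapped, at 47.3 to 78.3 CPM in 2D and 39.7 to 50.2 CPM in 3D. MGA was named after its values were seen and was not followed in the alternative fits or those without 1 library. Of the 11 genes of this network, 3 were higher and 1 lower in HT29, 4 and 3 in LS513, 5 and 2 in LS174T, and 4 and 1 in HCT116. The shares of all tested genes to set beside these and the following lists are those above, 21.1% higher and 19.6% lower in HT29, 13.7% and 9.9% in LS513, 13.1% and 9.15% in LS174T and 16.8% and 12.3% in HCT116. Medians of the log2 fold change over the genes of a list with a fold change are given in the same order of lines, beside 0.00 to 0.02 over all tested genes, and were 0.12, 0.16, 0.22 and 0.21 for this network.

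The glucose transporter that TXNIP removes from the membrane, SLC2A1 (GLUT1), rose in the 3 lines other than HT29, so that in LS513 and LS174T both transcripts were higher. In HT29, SLC2A1 was at 848 ± 75.4 CPM in 2D and 868 ± 127 CPM in 3D (log2 fold change 0.03, edgeR adjusted p = 0.88), the highest 2D level of the 4 lines. The log2 fold changes were 1.40 in LS513, 1.33 in HCT116 and 1.19 in LS174T (edgeR adjusted p = 1.7e-08, 4.1e-08 and 4e-07). SLC2A6, a hexose transporter of lysosomes, rose in HT29 (log2 fold change 1.11) and LS174T (0.64), with 0.26 in HCT116 (edgeR adjusted p = 1e-05, 0.0072 and 0.24). In LS513 it had 2 to 4 counts per library in 2D, too few for a fold change, and 17 to 40 in 3D (edgeR adjusted p = 4e-07). Of the 14 glucose entry genes listed, 10 were tested, and 4 were higher and 1 lower in HT29, 3 and 1 in LS513, 4 and 0 in LS174T and 2 and 0 in HCT116 (medians 0.23, 0.33, 0.38 and 0.20, that of LS513 with the fitted value of SLC2A6 included).

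Of the textbook ChREBP targets of lipid and hexose metabolism, some were higher in 3D in each line and some were lower in HT29. SCD, the stearoyl-CoA desaturase, was higher in all 4 lines, with log2 fold changes of 0.80 (HT29) to 1.67, and so was TKFC, a kinase of fructose breakdown, with 0.38 to 0.58. SCD is also a target of sterol response factors, and with the replicate block its call in HT29 was lost (log2 fold change 0.64, edgeR adjusted p = 0.094). Of 17 listed genes 13 were tested, and 4 were higher and 3 lower in HT29, 6 and 0 in LS513, 3 and 0 in LS174T and 3 and 0 in HCT116 (medians 0.14, 0.38, 0.15 and -0.05). In HT29 these counts are close to the shares of all genes. The genes lower there were ME1 (log2 fold change -0.62), PNPLA3 (-0.50, with overlapping groups) and ACLY (-0.28, edgeR adjusted p = 0.00015, 0.042 and 0.035). In HCT116 the median is close to that of all genes. The TKFC call was lost in LS513 in 4 of 6 fits and in LS174T in 3 of 6 fits without 1 library of the line, the log2 fold change in LS174T being 0.25 without LS174T 3D replicate 2 (adjusted p = 0.2). With the replicate block it was lost in both (adjusted p = 0.056 and 0.065).

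In the thioredoxin system, TXN itself was not called in any line, with log2 fold changes of 0.06 to 0.27 and levels of 355 to 813 CPM. PRDX5, a peroxiredoxin, was higher in all 4 lines (0.91 in HT29, 0.76 in LS513, 0.68 in LS174T and 1.01 in HCT116, edgeR adjusted p = 0.00021, 0.002, 0.0067 and 0.00013). The mitochondrial thioredoxin TXN2 was higher in HT29 (0.69) and LS174T (0.50, edgeR adjusted p = 0.00046 and 0.014). Without LS174T 3D replicate 2, the log2 fold changes in LS174T were 0.37 for PRDX5 and 0.25 for TXN2 (adjusted p = 0.081 and 0.15). Of 14 genes, 3 were higher and 4 lower in HT29, 2 and 0 in LS513, 5 and 0 in LS174T and 3 and 2 in HCT116 (medians 0.04, 0.14, 0.19 and 0.03). Those lower in HT29 were TXNRD1 (-0.85), TXNL1 (-0.57), NXN (-0.52) and PRDX6 (-0.38, edgeR adjusted p = 2e-06, 4.6e-06, 0.00078 and 0.00059). TXNRD1, a thioredoxin reductase, was higher in LS513 (0.44, edgeR adjusted p = 0.0041).

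Of the 9 NEDD4 family ligase genes, 5 were lower in HT29, where 19.6% of all genes were, 1 was lower in LS174T, and 0 were called in LS513 and HCT116 (medians -0.49 over 8 genes, -0.18 over 7, -0.02 over 7 and -0.17 over 9). Those lower in HT29 were NEDD4, NEDD4L, ITCH, SMURF1 and SMURF2. SMURF1 was lower in HT29 (-0.51) and LS174T (-0.52, edgeR adjusted p = 0.0013 and 0.0036), and ITCH, which ubiquitinates TXNIP, was lower in HT29 (140 ± 3.12 CPM in 2D and 101 ± 10.2 CPM in 3D, a log2 fold change of -0.47, edgeR adjusted p = 0.021). The ITCH call held in 1 of 6 fits without 1 HT29 library. Of the other arrestins, 2 of 5 listed genes were tested and 1 was called, higher in HT29.

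Among the relatives of KLF10, KLF11 and KLF9 were higher in LS513, HCT116 and LS174T and not called in HT29. The log2 fold changes of KLF11 were 0.51, 0.51 and 0.60 in those lines (edgeR adjusted p = 0.021, 0.025 and 0.014), and those of KLF9, which was at most 6.63 CPM, were 0.99, 1.17 and 1.37 (edgeR adjusted p = 0.0021, 0.00043 and 0.015). In LS174T, KLF9 was near the floor, at 0.194 ± 0.0551 CPM in 2D and 0.513 ± 0.13 CPM in 3D. The KLF11 calls held in 3 of 6 fits without 1 library of the line in LS513 (adjusted p up to 0.1), 2 of 6 in HCT116 (up to 0.18) and 4 of 6 in LS174T (up to 0.078). The KLF9 call in LS174T held in 3 of 6, and without LS174T 3D replicate 2 its log2 fold change was 1.23 (adjusted p = 0.07). Of the 7 relatives and corepressors listed, 0 were higher and 1 lower in HT29, 2 and 0 in LS513 and HCT116, and 2 and 1 in LS174T (medians -0.10 in HT29, 0.01 in LS513, -0.08 in LS174T and 0.31 in HCT116). Of 9 epithelial markers, 5 were higher and 1, KRT18, lower in HT29, 7 and 0 in LS513, 3 and 0 in LS174T and 3 and 0 in HCT116. KRT20 and LGALS4 were higher in 3D in all 4 lines, LGALS4 in HCT116 only near the floor (0.12 ± 0.0458 and 0.363 ± 0.224 CPM). Of the 5 tested markers of other cell types 1, 1, 0 and 1 were higher. Their part in the members' values was not tested.

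**Figure D4:**
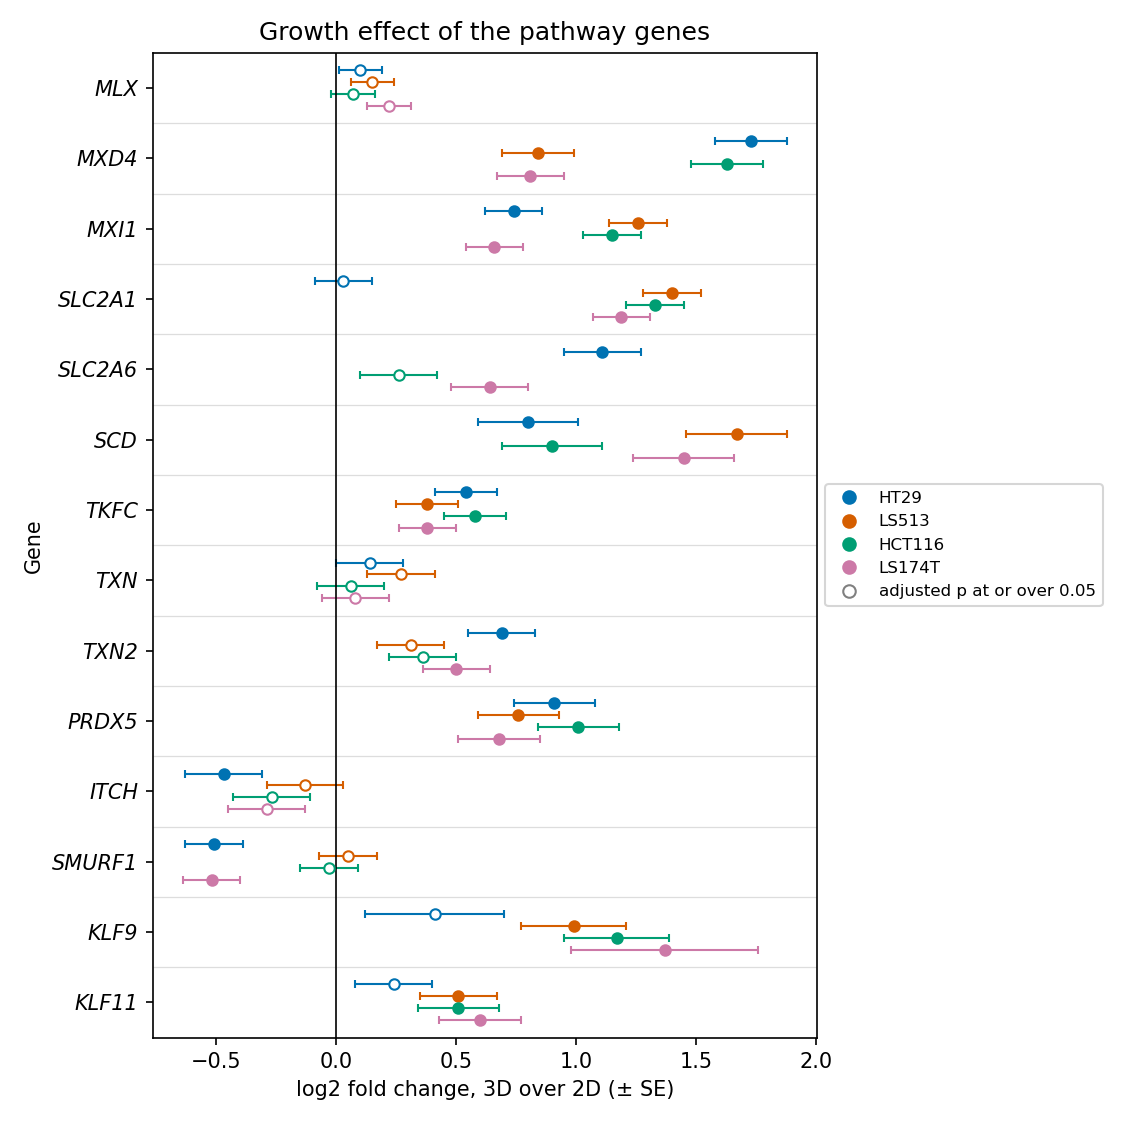
Log2 fold change of 3D over 2D (x axis, ± SE) of 14 partners, transporters, targets and ligases (y axis) in each line. Filled points have an edgeR adjusted p under 0.05. MXD4, MXI1, SCD, TKFC and PRDX5 are filled to the right of 0 in all 4 lines, MLX and TXN in none, and SLC2A1 lies at 0.03 in HT29. SLC2A6 has no point in LS513, where 2D libraries had 2 to 4 counts.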

How the data were processed

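The authors trimmed reads with Trim Galore 0.4.1, aligned them with STAR, removed multiply aligned reads and counted exon overlaps per gene with HTSeq 0.5.3, as deposited raw counts. The study's methods name Ensembl 91, whereas the submitters' processing notes name hg19. Identifiers were matched to GENCODE 29 (57980 of 58243), which gave all coordinates (GRCh38). Of 192 technical files 191 were used, summed into 24 libraries, and 1 of an HT29 3D library was not analysed here. Technical replicates differed by no more than counting error (chi-square per degree of freedom, 0.906 to 0.934).

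Differential expression was tested on the counts by edgeR 4.0.16 under R 4.3.3 (filterByExpr, TMM, robust quasi-likelihood fit of 8 groups, Benjamini-Hochberg over 19387 genes, threshold 0.05). DESeq2 1.42.0, another filter, subsets and a replicate block were alternatives. On simulated counts the fit was tested for recovery. The members and lists were chosen with earlier results of these data known. Named are the members, MLX, TXN, SLC2A1, ITCH, ARRDC5, from each list the 2 genes with the largest mean change called in at least 2 lines, and the 3 genes most like TXNIP and ARRDC4. Marker genes, neighbours of TXNIP, MGA, and the ligases, ChREBP targets and thioredoxin system genes called lower in HT29 are named beyond this rule, after their values were seen. Proteins were not analysed here.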

Additional observations from a re-analysis of the deposited data

Results flagged for a closer look

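The growth effect of TXNIP differed among the 3 lines other than HCT116 (edgeR interaction test, adjusted p = 0.0032), with log2 fold changes of 2.09 in HT29, 0.68 in LS513 and 0.88 in LS174T. Among the 4 lines it differed for ARRDC1 (adjusted p = 0.0012) and for ARRDC3 (adjusted p = 0.0052), where HCT116 had the largest log2 fold changes, 0.89 and 1.75. For ARRDC4 (adjusted p = 0.028) the log2 fold changes were between -0.10 in LS174T and 0.87 in LS513.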

How the results depend on the processing

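Of the 14 calls for single members, 7 held in every alternative and in every fit without 1 library. The number of members called was 3 in HT29, 4 in LS513, 2 in LS174T and 5 in HCT116. It was 5 in HT29 with all genes of at least 1 count kept, 2 in LS513 with the replicate block, and 1 in LS174T with technical replicates a to d and with only the 6 libraries of the line. When 1 library at a time was left out it ranged from 2 to 4, 1 to 5, 1 to 3 and 3 to 5. For the difference among lines it was 4, TXNIP included although HCT116 adds no growth effect of it, 7 with all genes of at least 1 count, 2 without HCT116 (chosen after seeing the data) and 3 to 5 without 1 library, and for the 2D level it was 8 throughout. Equal replicate numbers did not pair the libraries (11 correlations from -0.126 to 0.077), and in no line did every library correlate best with its own number. With the replicate block, 3 members were called in HT29, 4 in HCT116 and 2 in LS174T, and 1698 genes, against 3314, differed among the lines.

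Over all genes, without 1 library, 1811 to 3094 were higher (2651) and 973 to 2549 lower (1920) in LS513, 2217 to 3557 higher (3253) and 1530 to 3279 lower (2384) in HCT116, and 1398 to 3212 higher (2531) and 685 to 2826 lower (1774) in LS174T. With the 6 LS174T libraries alone, 1099 and 549 were. The lowest came without LS513 3D replicate 2, HCT116 2D replicate 1 and LS174T 3D replicate 2. In HT29, 3621 to 4861 were higher (4094) and 2751 to 3948 lower (3793) without 1 library. Both were lowest without HT29 3D replicate 1. With the replicate block, 2819 were higher and 2596 lower in HT29.

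Directions turned only for values that were not called. Without 1 library, the log2 fold change ranged in HT29 from -0.01 to 0.11 for ARRDC1, -0.31 to 0.34 for ARRDC3, -0.11 to 0.11 for MLXIP, -0.39 to 0.72 for KLF10 and -0.05 to 0.18 for SLC2A1. In LS174T it ranged from -0.34 to 0.17 for ARRDC3, -0.30 to 0.13 for ARRDC4, -0.02 to 0.30 for KLF10 and -0.11 to 0.21 for TXN. In LS513 it was -0.17 to 0.00 for KLF10 and -0.05 to 0.12 for SMURF1, and in HCT116 -0.14 to 0.04 for SMURF1, -0.02 to 0.11 for MLX and -0.03 to 0.12 for TXN. ARRDC3 was at -0.01 in HT29 with the replicate block and at 0.08 in LS174T with technical replicates a to d, and SMURF1 at 0.02 in HCT116 with e to h. The cause was not tested. Few or no counts limit what can be said of TXNIP in HCT116, MLXIPL in HT29, KLF9 in LS174T and ARRDC5.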
